A study of Homo sapiens with 9 samples.

Results

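The p53 target genes described here are 31 human genes, of which 28 were measured among the 18417 genes that the arrays reported by name. The list came from knowledge of the p53 pathway and was made with earlier results of these data known. Shares of members set beside shares of all genes are therefore descriptions. FDXR and BTG2 are named only, and the probe set of TNFRSF10C also stands for another gene, so these 3 carry no values. The rule is a list of gene symbols, and each of the 28 had a single probe set. Total RNA was hybridised to 9 Affymetrix arrays, with 3 arrays for each of 3 groups of the hepatocellular carcinoma line Hep3B. The groups were cells transfected with siRNA specific for YAP, cells transfected with a nonsense siRNA, and untreated cells. RNA of transfected cells was taken 24 h after Oligofectamine transfection. The labels give 24 h of growth before transfection for all groups and no later culture time for untreated cells. Against untreated cells, the siRNA, the transfection reagent and time in culture therefore cannot be told apart. An siRNA lowers the transcript it matches, and YAP is the coactivator at the end of the Hippo pathway. The labels do not give the number of siRNA sequences used against YAP and do not say that replicates were grown separately, so the p-values cover a spread that may be technical. All samples are of 1 cell line, and their titles start with HUH although the cell line field says Hep3B, which was followed.

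The transcription factor p53 is stabilised after DNA damage and other stress, and it then switches on genes that stop the cell cycle, repair DNA, adjust metabolism or start cell death. It also switches on its own inhibitors, above all MDM2, so that the response is held in a feedback loop. Many p53 target genes are also transcribed through other factors such as FOXO proteins and ATF4, so their levels are no readout of p53 activity here. p53 binds a response element made of a pair of matching arms, while YAP reaches DNA through TEAD factors, whose core motif is GGAATG.

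RefSeq promoter windows (build GRCh38.p14, 250 bases before to 50 after a transcription start) were matched for 25 of the 28 measured genes, in 39 windows; TP53INP1, RRM2B and PHLDA3 were not searched. The p53 response element consensus was searched as 2 arms of 10 bases with 0 to 13 bases between them, at most 2 mismatches in all, and the C and G at the core of each arm kept; the consensus reads the same on both strands. It was found in 4 of the 39 windows (10.3%), which belong to MDM2, DDB2 and AEN, against 2.93% of all 35116 windows. Of these 4, 2 are overlapping windows of MDM2 that hold the same element, which was thus counted 2 times. By gene, 3 of 25 had a match (12.0%). Overlapping windows were also counted singly among all windows. The TEAD core GGAATG, searched on both strands, was in 5 of the 39 windows (12.8%), those of TP53I3, PLK3, SESN1, GDF15 and SPATA18, against 14% of all windows. No window of a measured gene held both motifs. Bases outside these windows were not searched, so a gene without a match may hold either motif there. A match is a description of the letters and not a sign of binding.

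The stretches with the p53 element are shown because p53 names this list of genes. Whether p53 was present in these cells, or bound there, was not tested. Both arms are in capitals, and all 3 lie on the plus strand. The element begins at -94 from a downstream start of MDM2 (chr12:68808903-68808962), at -34 from the start of AEN (chr15:88621280-88621339) and at position 5 past a downstream start of DDB2 (chr11:47214975-47215004), where the match was without mismatch.
MDM2: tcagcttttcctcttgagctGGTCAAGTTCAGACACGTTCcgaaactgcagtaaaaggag
AEN: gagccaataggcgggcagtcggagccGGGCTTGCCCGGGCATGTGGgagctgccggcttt
DDB2: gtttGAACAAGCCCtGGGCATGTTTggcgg

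The 250 bases before the start are shown for TP53I3 (chr2:24084835-24085084, minus strand) and PLK3 (chr1:44800127-44800376, plus strand), because these members passed a test below and their windows hold the TEAD core. The capitals mark that core, which begins at -15 in TP53I3, where it reads in the reverse direction, and at -120 in PLK3.
TP53I3: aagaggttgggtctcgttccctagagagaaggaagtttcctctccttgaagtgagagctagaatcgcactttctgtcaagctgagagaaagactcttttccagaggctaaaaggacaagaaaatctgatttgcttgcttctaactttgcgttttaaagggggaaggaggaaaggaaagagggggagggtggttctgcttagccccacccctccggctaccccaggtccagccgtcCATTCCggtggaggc
PLK3: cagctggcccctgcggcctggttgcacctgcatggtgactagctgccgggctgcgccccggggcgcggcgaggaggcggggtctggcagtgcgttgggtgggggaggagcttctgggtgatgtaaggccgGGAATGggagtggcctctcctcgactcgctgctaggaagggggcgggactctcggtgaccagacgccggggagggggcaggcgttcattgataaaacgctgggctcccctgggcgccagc

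Values are log2 array signals, in which a difference of 1 is a doubling, and passing means an adjusted p below 0.05 in limma, over all 18417 genes. YAP1 averaged 7.51 ± 0.03 on the YAP siRNA arrays, 8.70 ± 0.05 on the nonsense siRNA arrays and 8.70 ± 0.08 in untreated cells (SD, n = 3 each), so the targeted transcript was lower in the group named for it. Hepatocyte markers were bright, with a mean level of 10.90 to 11.04 per array over 8 of 10 listed genes, and none of them passed (at most 1 had an unadjusted p under 0.05 in a comparison). The 7 stromal markers averaged 7.18 to 7.24 on the YAP siRNA arrays, 7.10 to 7.14 on the nonsense siRNA arrays and 7.21 to 7.22 in untreated cells. Of these 7, COL1A2 rose by 0.43 after YAP siRNA against nonsense siRNA; the part of such cells in the results was not tested. None of 4 endothelial and 5 leukocyte markers passed in limma, and 0 had an unadjusted p under 0.05. In each group 1 array stood apart: YAP siRNA replicate 3, nonsense siRNA replicate 2 and untreated replicate 3 had 55.0%, 56.1% and 58.0% of all genes above their group mean, where the other 6 arrays had 46.2% to 47.9%. These 3 arrays also had the lowest median signal of 192 small nucleolar and Cajal body RNA genes in their groups (6.75, 6.80 and 6.70). Calls of members that change without them are given both ways.

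Of the 28 measured p53 target genes, 4 passed in at least 1 comparison, in both directions. After YAP siRNA against nonsense siRNA, TP53INP1 fell and TP53I3 rose; against untreated cells TP53INP1 fell again; and after nonsense siRNA against untreated cells TIGAR rose and PLK3 fell. The other 24 measured members passed in none of the 3 comparisons. YAP siRNA against nonsense siRNA thus had 2 of 28 members past the threshold (7.14%), where 4.53% of all genes were, with 1 higher beside a background of 1.92% and 1 lower beside 2.61%. YAP siRNA against untreated cells had 0 higher (background 1.63%) and 1 lower (background 1.46%), which was 3.57% of members beside 3.09% of genes. Nonsense siRNA against untreated cells had 1 higher (background 0.337%) and 1 lower (background 0.277%), where 2 of 28 members (7.14%) and 0.614% of all genes passed. An unadjusted p under 0.05 was found for 10 of 28 members (35.7%) in YAP siRNA against nonsense siRNA, beside 15.8% of all genes. The count was 8 of 28 (28.6%) in YAP siRNA against untreated cells, beside 15.8%, and 8 of 28 (28.6%) in nonsense siRNA against untreated cells, beside 19.5%. The 3 comparisons share groups, so they are not independent of each other. In bulk RNA of this kind, fewer cells with a transcript and less transcript per cell cannot be told apart.

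**Figure D1:**
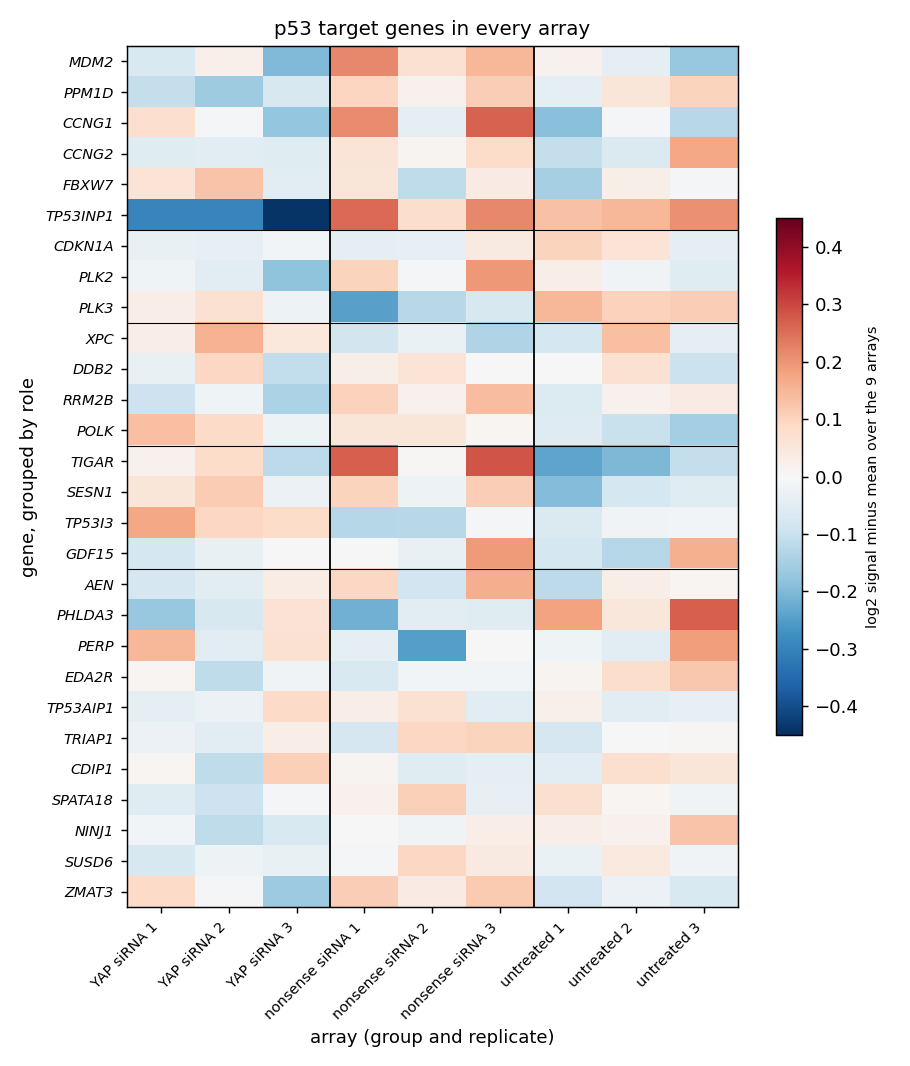
Each measured p53 target gene (rows, grouped by role with lines between roles) in each of the 9 arrays (columns), as the log2 signal minus that gene's mean over the 9 arrays. TP53INP1 is low in all 3 YAP siRNA arrays, and TIGAR and CCNG1 are high in nonsense siRNA replicates 1 and 3 but not in replicate 2.

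TP53INP1 was the only member whose calls all stayed past the threshold in each of the 19 alternative fits. It encodes a stress-induced nuclear protein that promotes p53 phosphorylation and takes part in autophagy. Its signal was 8.17, 8.16 and 8.02 on the YAP siRNA arrays, against 8.72, 8.54 and 8.68 on the nonsense siRNA arrays and 8.59, 8.61 and 8.67 in untreated cells. Every YAP siRNA array lay below all 6 control arrays, and the controls overlapped. TP53INP1 fell by 0.53 against nonsense siRNA (SE 0.0608, adjusted p = 8.84e-05), to 69.4% of the level there, and it fell by 0.51 against untreated cells (SE 0.0608, adjusted p = 0.000234). Between the controls the difference was 0.02, with a 95% interval of -0.11 to 0.15. Over the 19 alternative fits the difference from nonsense siRNA ran from -0.58 to -0.48.

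Among the feedback regulators, MDM2 and PPM1D came next to TP53INP1 in their distance below nonsense siRNA, and neither passed. MDM2, the ubiquitin ligase that degrades p53, had 8.80, 8.89 and 8.67 on the YAP siRNA arrays, 9.09, 8.94 and 9.02 on the nonsense siRNA arrays and 8.89, 8.83 and 8.70 in untreated cells. All nonsense siRNA arrays were above both other groups, which overlapped. The MDM2 difference was -0.23 for YAP siRNA against nonsense siRNA (adjusted p = 0.0776), -0.02 for YAP siRNA against untreated cells (adjusted p = 0.931) and 0.21 for nonsense siRNA against untreated cells (adjusted p = 0.139). Without nonsense siRNA replicate 2 it passed against nonsense siRNA at -0.26 (adjusted p = 0.0385), and nonsense siRNA against untreated cells passed at 0.25 (adjusted p = 0.0489). Nonsense siRNA against untreated cells also passed without the 3 arrays that stood apart (0.19, adjusted p = 0.0445). YAP siRNA against nonsense siRNA did not pass without these 3 arrays (-0.21, adjusted p = 0.0502) or without YAP siRNA replicate 3 (-0.17, adjusted p = 0.286).

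PPM1D encodes the phosphatase WIP1, which switches off p53 and its upstream kinases. It had 7.62, 7.57 and 7.66 on the YAP siRNA arrays, against 7.83, 7.75 and 7.84 on the nonsense siRNA arrays and 7.69, 7.78 and 7.83 in untreated cells. As in TP53INP1, the YAP siRNA arrays lay below all 6 control arrays, by a small margin. The difference was -0.19 from nonsense siRNA (SE 0.0553, adjusted p = 0.0686) and -0.15 from untreated cells (adjusted p = 0.188). Against nonsense siRNA, PPM1D passed without nonsense siRNA replicate 2 (-0.22, adjusted p = 0.0417) and without the 3 arrays that stood apart (-0.24, adjusted p = 0.0214). It did not pass there without YAP siRNA replicate 3 (-0.21, adjusted p = 0.0916).

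CCNG1, a cyclin gene that is among the classical p53 targets and feeds back on MDM2, had 8.59, 8.50 and 8.34 on the YAP siRNA arrays, 8.73, 8.47 and 8.78 on the nonsense siRNA arrays and 8.32, 8.50 and 8.39 in untreated cells. Nonsense siRNA replicate 2 lay within the range of the other groups and replicates 1 and 3 lay above it. CCNG1 differed by -0.18 between YAP siRNA and nonsense siRNA (adjusted p = 0.292) and by 0.25 between nonsense siRNA and untreated cells (adjusted p = 0.138). Without that replicate these were -0.28 (adjusted p = 0.0342) and 0.35 (adjusted p = 0.0122), and without the 3 arrays that stood apart the second was 0.34 (adjusted p = 0.00541). The first did not pass without these 3 arrays (-0.21, adjusted p = 0.0793) or without YAP siRNA replicate 3 (-0.11, adjusted p = 0.683). CCNG2, a related cyclin gene also driven by FOXO factors, differed by -0.10 from nonsense siRNA (adjusted p = 0.511) and by -0.05 from untreated cells after YAP siRNA. FBXW7, which encodes the substrate receptor of a ubiquitin ligase for cyclin E and MYC, differed by 0.06 (adjusted p = 0.797) and 0.09 (adjusted p = 0.546) in the same order.

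**Figure D2:**
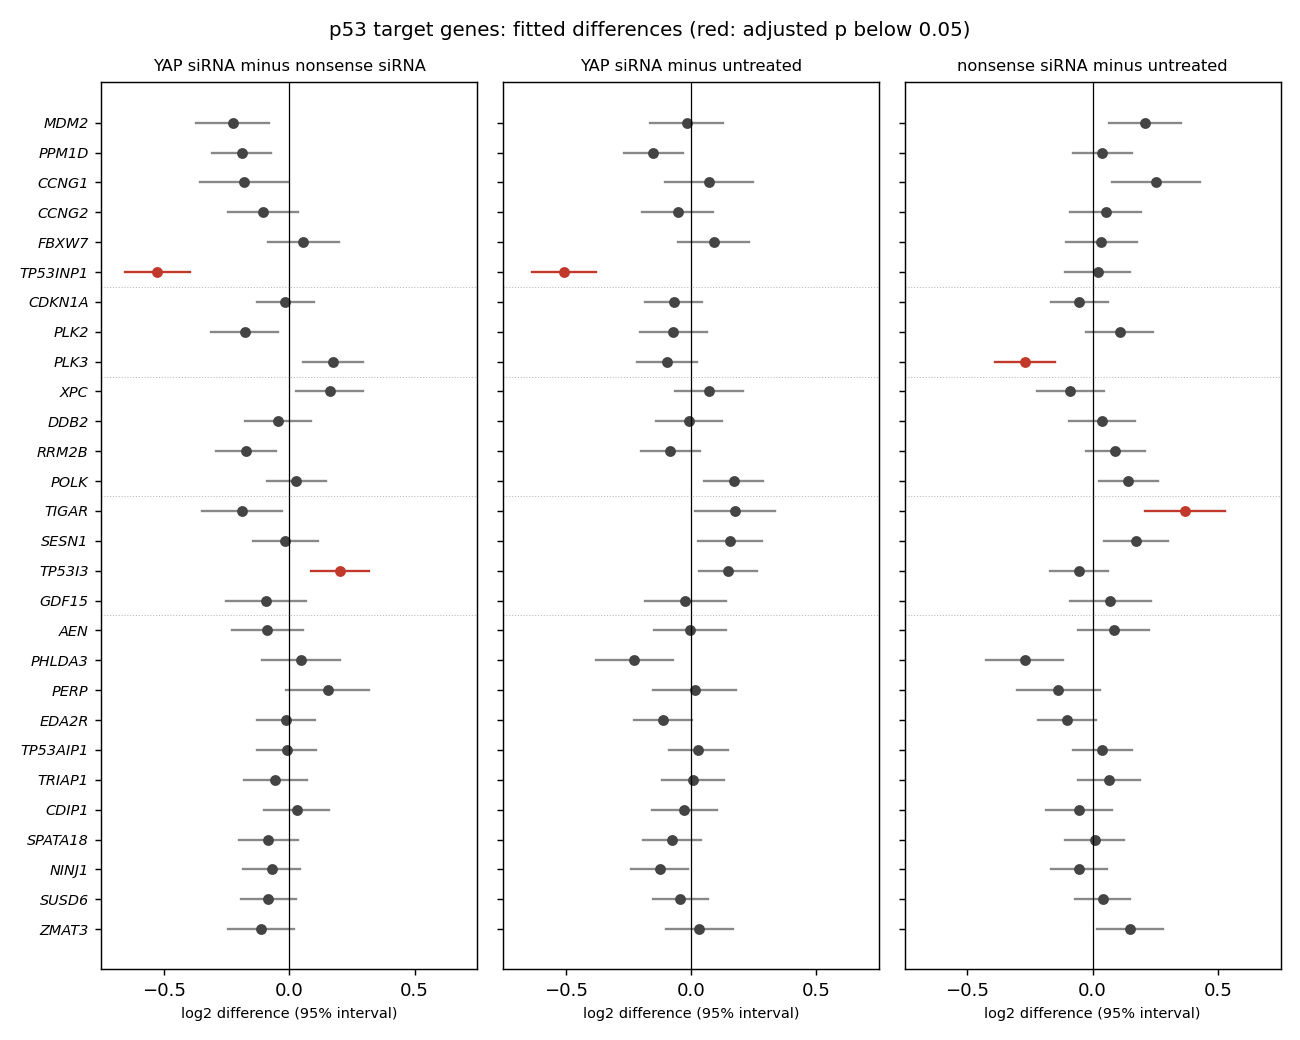
Fitted log2 difference (point) and its unadjusted 95% interval (line) of each measured member in the 3 comparisons, grouped by role, with red for an adjusted p below 0.05. TP53INP1 is red in both YAP siRNA panels, TP53I3 in the first panel, and TIGAR and PLK3 in the third.

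The arrest genes held 1 change. PLK3, a stress-response polo-like kinase gene, had 7.31, 7.42 and 7.48 on the nonsense siRNA arrays, against 7.70, 7.65 and 7.66 in untreated cells. The YAP siRNA arrays, at 7.58, 7.62 and 7.53, lay between these groups without overlap on either side. PLK3 fell by 0.27 after nonsense siRNA against untreated cells (SE 0.0559, adjusted p = 0.0452), to 83.0% of the untreated level. YAP siRNA differed by 0.17 from nonsense siRNA (adjusted p = 0.105) and by -0.10 from untreated cells (adjusted p = 0.435). The call was lost when any 1 array other than nonsense siRNA replicate 2 or YAP siRNA replicate 3 was left out, with adjusted p from 0.0641 without YAP siRNA replicate 2 to 0.268 without nonsense siRNA replicate 1, and with each array centred on its median (adjusted p = 0.0777).

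CDKN1A, which encodes the cyclin-dependent kinase inhibitor p21 and is the best known arrest gene of p53, was close to level across the groups. It had 6.87, 6.87 and 6.89 on the YAP siRNA arrays, 6.86, 6.87 and 6.95 on the nonsense siRNA arrays and 7.01, 6.97 and 6.87 in untreated cells, so all groups overlapped. The 95% interval of YAP siRNA against nonsense siRNA was -0.13 to 0.10, and that against untreated cells was -0.18 to 0.05. PLK2, another polo-like kinase gene, had 8.27, 8.24 and 8.11 on the YAP siRNA arrays, against 8.39, 8.28 and 8.48 on the nonsense siRNA arrays and 8.32, 8.27 and 8.24 in untreated cells. It differed by -0.18 from nonsense siRNA (adjusted p = 0.147), and without nonsense siRNA replicate 2 it passed at -0.23 (adjusted p = 0.0396). PLK2 did not pass without the 3 arrays that stood apart (-0.18, adjusted p = 0.0768) or without YAP siRNA replicate 3 (-0.13, adjusted p = 0.432).

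None of the 4 DNA repair genes passed in any comparison by limma, and 2 had an unadjusted p under 0.05 for YAP siRNA against nonsense siRNA (15.8% of all genes), 1 for YAP siRNA against untreated cells (15.8%) and 1 for nonsense siRNA against untreated cells (19.5%). RRM2B, the p53-induced small subunit of ribonucleotide reductase, had 8.06, 8.14 and 8.02 on the YAP siRNA arrays, against 8.26, 8.18 and 8.30 on the nonsense siRNA arrays and 8.10, 8.18 and 8.19 in untreated cells. The YAP siRNA arrays were all below those of nonsense siRNA (-0.17, adjusted p = 0.105) and overlapped with untreated cells. XPC, which recognises damage in nucleotide excision repair, differed in the other direction, with 7.81, 7.93 and 7.82 on the YAP siRNA arrays, against 7.69, 7.75 and 7.64 on the nonsense siRNA arrays (0.16, adjusted p = 0.207). Untreated cells, at 7.70, 7.91 and 7.74, overlapped with both. POLK, a translesion DNA polymerase gene, had 7.31, 7.26 and 7.15 on the YAP siRNA arrays, against 7.11, 7.07 and 7.02 in untreated cells (0.17, adjusted p = 0.127), and nonsense siRNA differed from untreated cells by 0.14 (adjusted p = 0.189). POLK passed for YAP siRNA against untreated cells without YAP siRNA replicate 3 (0.22, adjusted p = 0.0459) and without the 3 arrays that stood apart (0.19, adjusted p = 0.0491). DDB2, the damage sensor gene with the perfect element shown above, differed by -0.05 from nonsense siRNA and by -0.01 from untreated cells after YAP siRNA (adjusted p = 0.825 and 0.964).

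The metabolic and stress genes held both of the remaining calls. TP53I3, a quinone reductase gene linked to oxidative stress, had 8.47, 8.39 and 8.38 on the YAP siRNA arrays, against 8.17, 8.17 and 8.29 on the nonsense siRNA arrays and 8.23, 8.28 and 8.28 in untreated cells. Every YAP siRNA array lay above all 6 control arrays. TP53I3 rose by 0.20 against nonsense siRNA (SE 0.0542, adjusted p = 0.0447), to 115% of the level there, and differed by 0.15 from untreated cells (adjusted p = 0.187). The call was narrow: it was lost when any 1 array other than nonsense siRNA replicate 3 was left out, with adjusted p from 0.0507 without untreated replicate 3 to 0.211 without nonsense siRNA replicate 1, with each array centred on its median (adjusted p = 0.0720) and without the 3 arrays that stood apart (adjusted p = 0.0646).

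TIGAR encodes a bisphosphatase that slows glycolysis and favours the making of NADPH. It had 7.50, 7.57 and 7.37 on the YAP siRNA arrays, 7.75, 7.49 and 7.77 on the nonsense siRNA arrays and 7.25, 7.28 and 7.38 in untreated cells. All nonsense siRNA arrays were above untreated cells, while YAP siRNA overlapped with both. TIGAR rose by 0.37 after nonsense siRNA against untreated cells (SE 0.0751, adjusted p = 0.0427), to 129% of the untreated level. YAP siRNA differed by -0.19 from nonsense siRNA (adjusted p = 0.211) and by 0.18 from untreated cells (adjusted p = 0.260). The rise was lost when any 1 array other than nonsense siRNA replicate 2 or YAP siRNA replicate 3 was left out, with adjusted p from 0.0572 without YAP siRNA replicate 2 to 0.249 without nonsense siRNA replicate 1. It was also lost with each array centred on its median (adjusted p = 0.0542). Without nonsense siRNA replicate 2 it was 0.46 (adjusted p = 0.00205), and YAP siRNA against nonsense siRNA then passed as well, at -0.28 (adjusted p = 0.0179). Without the 3 arrays that stood apart, TIGAR passed in all 3 comparisons, at 0.49 for nonsense siRNA against untreated cells, -0.22 for YAP siRNA against nonsense siRNA and 0.27 for YAP siRNA against untreated cells.

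SESN1, which encodes a sestrin that restrains mTORC1 signalling, was at a similar level in both transfected groups. It had 7.63, 7.69 and 7.55 on the YAP siRNA arrays and 7.68, 7.56 and 7.69 on the nonsense siRNA arrays, against 7.39, 7.50 and 7.52 in untreated cells, and neither transfected group overlapped with untreated cells. The difference from untreated cells was 0.16 after YAP siRNA (adjusted p = 0.207) and 0.17 after nonsense siRNA (adjusted p = 0.156). Without the 3 arrays that stood apart both passed, at 0.22 (adjusted p = 0.0344) and 0.24 (adjusted p = 0.0173), and without nonsense siRNA replicate 2 the difference of nonsense siRNA passed at 0.22 (adjusted p = 0.0484). GDF15, a secreted stress cytokine gene that is also a target of ATF4, had 8.39, 8.43 and 8.46 on the YAP siRNA arrays, 8.47, 8.43 and 8.66 on the nonsense siRNA arrays and 8.39, 8.34 and 8.63 in untreated cells. GDF15 overlapped between all groups and differed by -0.09 from nonsense siRNA (adjusted p = 0.657) and by -0.02 from untreated cells after YAP siRNA (adjusted p = 0.924).

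**Figure D3:**
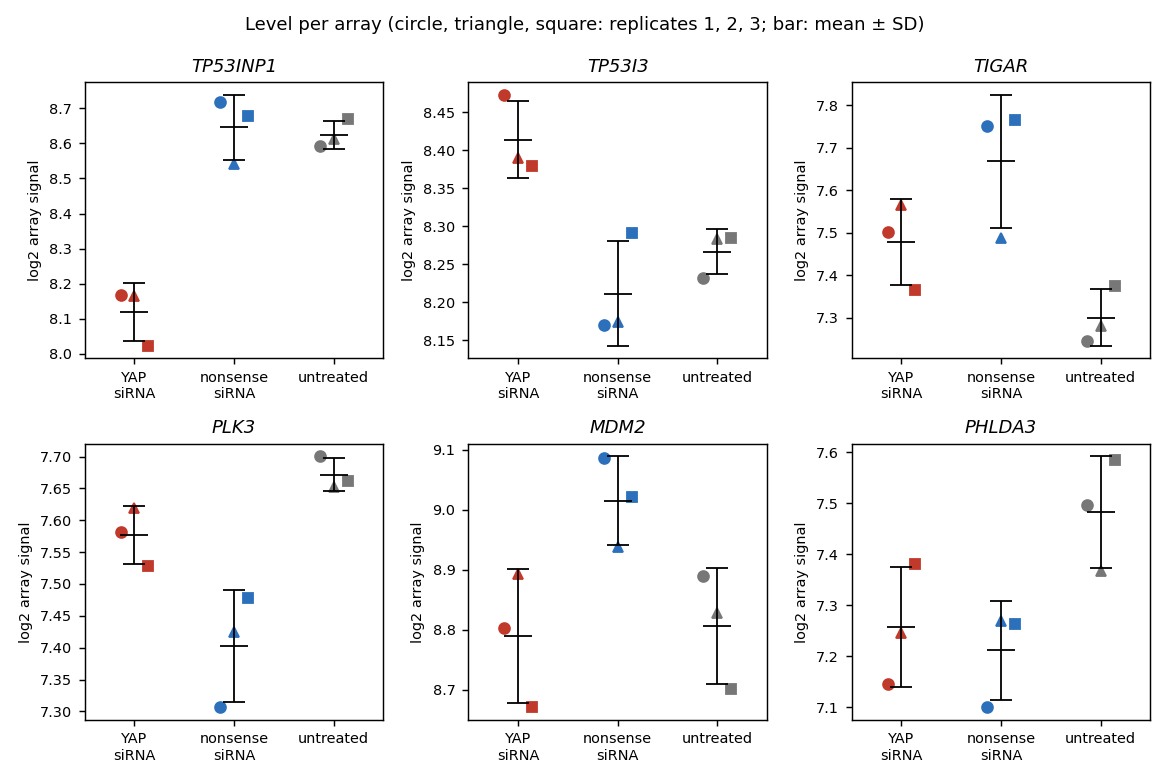
Log2 signal on each array (circle, triangle and square for replicates 1, 2 and 3) with the mean and SD of each group, for the 4 members that passed in a comparison and for MDM2 and PHLDA3; each panel has its own axis, which does not start at 0. The YAP siRNA arrays lie apart from all 6 control arrays in TP53INP1 and TP53I3, all 3 groups lie apart in PLK3, and in MDM2 the nonsense siRNA arrays lie above both other groups.

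Of the 11 measured genes of cell death, survival and membrane damage, 0 passed by limma in any comparison, 0 had an unadjusted p under 0.05 for YAP siRNA against nonsense siRNA (15.8% of all genes), and 2 had one against untreated cells both after YAP siRNA (15.8%) and after nonsense siRNA (19.5%). Their differences after YAP siRNA against nonsense siRNA ran from -0.11 to 0.15. PHLDA3, an inhibitor of AKT signalling, came nearest. It had 7.15, 7.24 and 7.38 on the YAP siRNA arrays, 7.10, 7.27 and 7.26 on the nonsense siRNA arrays and 7.50, 7.37 and 7.58 in untreated cells. PHLDA3 differed from untreated cells by -0.27 after nonsense siRNA (adjusted p = 0.0926) and by -0.23 after YAP siRNA (adjusted p = 0.124). Without the 3 arrays that stood apart both passed, at -0.25 (adjusted p = 0.0305) and -0.24 (adjusted p = 0.0479). It also passed after nonsense siRNA without replicate 2 of that group (-0.30, adjusted p = 0.0322) and after YAP siRNA without its replicate 3 (-0.29, adjusted p = 0.0439).

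PERP, a desmosomal membrane protein gene, differed by 0.15 from nonsense siRNA and by 0.02 from untreated cells after YAP siRNA (adjusted p = 0.365 and 0.948). NINJ1, whose protein ruptures the plasma membrane of dying cells, had 9.04, 8.94 and 8.98 on the YAP siRNA arrays, against 9.08, 9.07 and 9.18 in untreated cells (-0.12, adjusted p = 0.264). ZMAT3, an RNA-binding zinc finger gene, had 7.55, 7.48 and 7.56 on the nonsense siRNA arrays, against 7.35, 7.42 and 7.37 in untreated cells (0.15, adjusted p = 0.213). AEN, a nuclease gene with the p53 element shown above, differed by -0.09 from nonsense siRNA and by less than 0.01 from untreated cells after YAP siRNA (adjusted p = 0.628 and 0.987). In the same comparison with nonsense siRNA, TRIAP1, a mitochondrial lipid transfer gene that protects from apoptosis, differed by -0.06, CDIP1, a proapoptotic gene, by 0.03, and SUSD6 by -0.08. EDA2R, the gene of a TNF family receptor, TP53AIP1, a mitochondrial apoptosis gene, and SPATA18, a mitochondrial quality control gene, gave weak signals at or below the 16.5th percentile of all genes, where a probe set may miss a change. Their differences from nonsense siRNA were -0.01, -0.01 and -0.08.

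For the 24 members that passed in no comparison, the 95% intervals limit what could have been missed. The farthest bound from 0 was 0.37 for YAP siRNA against nonsense siRNA, 0.38 for YAP siRNA against untreated cells and 0.43 for nonsense siRNA against untreated cells. The median pooled SD within groups was 0.0760 over the members and 0.0721 over all genes, so the members were measured about as tightly as the rest.

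Across the 28 measured members the nonsense siRNA group had the highest mean in 17, YAP siRNA in 5 and untreated cells in 6, whereas over all genes these shares were 27.4%, 28.7% and 44.0%. YAP siRNA had the lowest mean in 14 members, beside 29.3% of all genes. The order of nonsense siRNA over untreated cells over YAP siRNA held 11 members, among them MDM2, PPM1D, TP53INP1, PLK2 and RRM2B, and 12.4% of all genes. The median difference over members was -0.06 for YAP siRNA against nonsense siRNA, where that of all genes was 0.01. It was -0.02 for YAP siRNA against untreated cells, beside -0.01 for all genes, and 0.04 for nonsense siRNA against untreated cells, beside -0.02. These are descriptions of means, most of which did not pass as single genes.

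Counts of members whose 3 arrays did not overlap between groups give the same view array by array. YAP siRNA lay wholly below nonsense siRNA in 7 of 28 members (25%), which were TP53INP1, PPM1D, MDM2, RRM2B, PLK2, CCNG2 and SUSD6, beside 8.71% of all genes. It lay wholly above in 3 (10.7%), PLK3, XPC and TP53I3, beside 11.5%. Against untreated cells YAP siRNA lay below in 5 (17.9%), TP53INP1, PPM1D, PLK3, EDA2R and NINJ1, beside 10.3%, and above in 3 (10.7%), POLK, SESN1 and TP53I3, beside 10.2%. Nonsense siRNA lay above untreated cells in 5 (17.9%), MDM2, POLK, TIGAR, SESN1 and ZMAT3, beside 8.90%, and below in 3 (10.7%), PLK3, PHLDA3 and EDA2R, beside 13.8%. On each side with 3 members, their share was near or under the background.

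The rest of the p53 pathway was counted in the same way. Of 24 listed genes of the p53 network (family members, kinases, ligases and cofactors) 22 were measured. In limma 0 of the 22 passed in either direction after YAP siRNA against nonsense siRNA (4.53% of all genes), with a median difference of -0.07. In each of the other comparisons 1 rose and 0 fell, CHEK2 in both, where 3.09% of all genes passed for YAP siRNA and 0.614% for nonsense siRNA against untreated cells. An unadjusted p under 0.05 was found for 2 of 22 in YAP siRNA against nonsense siRNA (15.8% of all genes), 4 of 22 in YAP siRNA against untreated cells (15.8%) and 9 of 22 in nonsense siRNA against untreated cells (19.5%). CHEK2, a checkpoint kinase gene that acts upstream of p53, rose against untreated cells in both transfected groups. Its signal was 7.38, 7.29 and 7.25 on the YAP siRNA arrays and 7.47, 7.30 and 7.34 on the nonsense siRNA arrays, against 6.90, 7.15 and 7.04 in untreated cells. The rise was 0.27 after YAP siRNA (adjusted p = 0.0382) and 0.34 after nonsense siRNA (adjusted p = 0.0399), and the transfected groups overlapped. CHEK2 was not followed in the alternative fits, so whether these narrow calls would stay in them is not known.

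Of 28 measured p53 target genes outside the 31, 1 rose and 1 fell after YAP siRNA against nonsense siRNA (4.53% of all genes passed), and 2 rose and 1 fell against untreated cells (3.09% passed). By limma 0 passed for nonsense siRNA against untreated cells (0.614% passed). An unadjusted p under 0.05 was found for 10, 9 and 5 of the 28 in these comparisons, beside 15.8%, 15.8% and 19.5% of all genes. APAF1, the scaffold gene of the apoptosome, fell by 0.22 (adjusted p = 0.0384) and by 0.27 (adjusted p = 0.0170) against the 2 controls, nonsense siRNA and untreated cells. TNFRSF10B, a death receptor gene, rose by 0.22 (adjusted p = 0.0160) and by 0.24 (adjusted p = 0.0151) in the same order. DRAM1, a lysosomal membrane gene of autophagy, rose by 0.29 against untreated cells (adjusted p = 0.0223) and differed by 0.22 from nonsense siRNA (adjusted p = 0.0661). APAF1, TNFRSF10B and DRAM1 were not followed in the alternative fits either.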

How the data were processed

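The deposited table held log2 array signals for 33297 probe sets on 9 arrays, already on a common scale (array medians within 0.06). The sources used here do not state the background correction or summarisation, and the log2 unit was read from the range of the deposited values. Of these, 19460 probe sets were listed with 1 gene, 1754 with several and 12083 not at all; those with 1 gene gave 18417 genes, by the probe set with the highest mean. The 3 group means of each gene were compared in limma 3.58.1 (R 4.3.3), with all 9 arrays sharing 1 moderated variance, two-sided, with Benjamini-Hochberg adjustment over all genes. The members and lists were chosen with earlier results of these data known. By the naming rule, members that passed in any comparison were given array by array, and the other lists by counts and by up to 4 passing genes per comparison. Array values of members that did not pass, and left-out arrays named beside them, were added after the values were seen. Alternatives were the scaling, filters, probe set choice, variance model, arrays used, replicate block and each array left out. The fit was checked on simulated data. Figures used Python 3.11.15 and matplotlib 3.10.9. The number of arrays limits the precision.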

Additional observations from a re-analysis of the deposited data

How the results depend on the processing

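Of 5 member differences that passed, recomputed in 95 alternative fits, 61 stayed past the threshold, 34 lost it and 0 changed sign; both differences of TP53INP1 are among the 61, in all 19 fits each, and both of YAP1 also stayed past it. Leaving out 1 array gave 1 to 6 members called for YAP siRNA against nonsense siRNA (main count 2), 1 to 3 against untreated cells (main count 1) and 0 to 6 for nonsense siRNA against untreated cells (main count 2); both counts of 6 came without nonsense siRNA replicate 2, where 6.68% and 7.98% of all genes were called, and the 3 without YAP siRNA replicate 3. Over all genes the last comparison had 113 calls, from 11 without nonsense siRNA replicate 1 to 1470 without replicate 2. For YAP siRNA against nonsense siRNA 1 member was called with arrays centred on their medians, with trended and robust variance, with only the 6 arrays compared, and with the replicate block. For nonsense siRNA against untreated cells these gave 0, 1, 0 and 0 in the same order. Without the 3 arrays that stood apart, a choice made after seeing the data, 3 members were called for YAP siRNA against nonsense siRNA, 5 for YAP siRNA against untreated cells and 6 for nonsense siRNA against untreated cells, beside 6.99%, 8.47% and 12.6% of all genes. The cause of these moves was not tested. Deviations of same-numbered arrays from their group means had correlations from -0.34 to 0.34. A pair with different numbers, YAP siRNA replicate 3 and nonsense siRNA replicate 2, had 0.47. Since each deviation is from a mean of only 3 arrays, this check cannot decide whether the replicate numbers pair the samples. The replicate block changed the call of TP53I3 (adjusted p = 0.0685), TIGAR (0.0708) and PLK3 (0.0763). The filters, quantile normalization and both probe set choices kept all 3 counts. With 3 arrays a group, differences under about 0.4 on the log2 scale could be missed in single members.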
